A study of Mus musculus with 10 samples.

Results

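The nuclear-encoded respiratory chain genes supply most of the subunits of complexes I to IV of the mitochondrial inner membrane. Members were chosen by name: protein-coding genes whose symbol begins with Ndufa, Ndufb, Ndufc, Ndufs, Ndufv or Uqcr, or with Cox4 to Cox8, together with Sdha, Sdhb, Sdhc and Sdhd, leaving out the assembly factors that begin with Ndufaf. Of the 53379 gene identifiers in the count tables, 68 met this rule. Complex I had 38 of them, complex II had 4, complex III had 8 and complex IV had 18. The rule uses no measured value, and it leaves out Cyc1 and the subunits encoded by mitochondrial DNA, which are described apart.

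As background, complex I takes electrons from NADH and complex II takes them from succinate, and both pass them to ubiquinone. Complex III passes the electrons on to cytochrome c, and complex IV, cytochrome c oxidase, hands them to oxygen. Complexes I, III and IV pump protons, and the gradient drives ATP synthase, on which neurons draw heavily for ion pumping and synaptic transmission.

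The study asked whether hippocampal cells active during experiences of opposite valence differ in their transcripts. RNA was sequenced from EYFP-tagged cells that were sorted by flow cytometry from dissociated hippocampi of male mice, aged 5 weeks per the labels. The tag came from injected AAV9 vectors, TRE-ChR2-EYFP together with cFos-tTA, in which the Fos promoter drives the transactivator and doxycycline in the diet keeps it silent, so any infected cell with Fos activity off doxycycline could be tagged, neuron or not. Fos-CreER and wild-type C57BL/6 males served in the study, and which of them were sequenced is not given in the sources used here. The methods call the sorted material cells and the results call it nuclei, which bears on the transcripts measured, and what was sorted from untagged mock mice is not given.

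Aversive mice received 4 foot shocks of 2 s at 1.5 mA, and appetitive mice met a female in a clean home cage, for 1 h by the labels and for 2 h by the methods. Neutral mice were placed in the conditioning cage with neither stimulus, and mock mice stayed in the home cage, described in the methods as an untagged control. There were 3 mock, 2 aversive, 2 appetitive and 3 neutral libraries, numbered as in the labels (aversive replicates 1 and 3, appetitive replicates 1 and 2), and values are given below in the order of those numbers. Per the labels 8 mice were pooled per condition, while the methods give 2 mice for mock, fewer than its 3 libraries. Libraries of a group may thus share animals, and p-values measure the spread between libraries, which may be technical. Neutral libraries were made with another version of the SMART-Seq v4 workflow, labelled total RNA in place of polyA RNA, and sequenced on another instrument with 100 bp paired-end reads in place of 40 bp single-end reads. In every comparison with the neutral group, the experience and the library preparation cannot be told apart.

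Total counts were 29194873, 20505550 and 49880042 in the mock libraries, 27159427 and 39172609 in the aversive ones, 26647573 and 16968588 in the appetitive ones and 60077131, 67650693 and 62741023 in the neutral ones. The appetitive libraries were also the least complex, with a count for 14144 and 14658 genes against 16849 to 30899 in the other 8. Levels are in CPM, counts scaled by depth and by the trimmed mean of M values (TMM), whose factors ranged from 0.48 in appetitive replicate 1 to 1.45 in mock replicate 3. A level that the depth can just show was taken as 3 counts, which is 0.0347 to 0.235 CPM depending on the library, for counting error only.

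Markers of several cell types were present in the sorted material. All 11 neuronal markers had counts, and their summed share of library counts was 0.0318, 0.0228 and 0.036 percent in the mock libraries, 0.0673 and 0.125 in the aversive, 0.0595 and 0.0247 in the appetitive and 0.0113, 0.0141 and 0.0118 in the neutral ones, with Snap25 the most abundant. By this share the sum was highest in both aversive libraries and lowest in the neutral ones, but after TMM scaling it was highest in appetitive replicate 1, at 1240.2 CPM. Single markers did not all follow the sum, such as Slc17a7 and Syt1, named after their values were seen. Gad1 and Gad2 had no counts in either appetitive library. The 7 oligodendrocyte markers, led by Mbp, made up 31.4, 27.5 and 7.25 percent in the mock libraries, 30.2 and 3.17 in the aversive, 38.5 and 9.09 in the appetitive and 2.52, 4.5 and 0.923 in the neutral ones. The 6 markers of choroid plexus and ependyma, led by Ttr, made up 0.0963, 0.108 and 0.501 percent in the mock libraries, 0.994 and 0.916 in the aversive, 0.0407 and 0.335 in the appetitive and 13.7, 2.71 and 11.7 in the neutral ones. Myelin transcripts therefore took a large share of both replicate 1 libraries of the tagged polyA groups and of mock replicates 1 and 2, and choroid plexus transcripts a large share of neutral replicates 1 and 3. Astrocyte markers, led by Aldoc, made up 1.33, 0.658 and 0.71 percent in the mock libraries, 0.488 and 0.906 in the aversive, 0.34 and 0.378 in the appetitive and 0.0206, 0.0478 and 0.0359 in the neutral ones. Microglial markers, led by C1qb, made up 0.151, 0.254 and 1.53 percent in the mock libraries, 0.51 and 0.346 in the aversive, 0.194 and 0.137 in the appetitive and 0.00421, 0.0496 and 0.0391 in the neutral ones. Both were lower in all 3 neutral libraries than in any other library. Endothelial markers, led by Bsg, which choroid plexus also expresses, made up 0.153, 0.996 and 0.477 percent in the mock libraries, 0.301 and 0.258 in the aversive, 0.277 and 0.159 in the appetitive and 0.495, 1.35 and 0.996 in the neutral ones. In neutral replicate 1, Bsg gave 4596 of the summed 4694 CPM. There Cldn5, Pecam1, Flt1, Ly6c1 and Itm2a were each below every mock library. The 3 markers of oligodendrocyte precursors made up at most 0.0151 percent of any library and the 5 of meninges and fibroblasts at most 0.0137 percent, with Vcan at 0 in the neutral libraries and Igf2 at 0 in the appetitive ones. The part that cell composition has in the values below was not tested, and in sorted pools of this kind fewer cells of a type and less RNA per cell cannot be told apart.

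All members but Cox8c had counts, and 67 of the 68 passed the filter on low counts, beside 19754 genes in all. As a share of all library counts, the members together took 0.879, 1.08 and 0.702 percent in the mock libraries, 1.66 and 1.98 in the aversive, 1.57 and 1.45 in the appetitive and 2.39, 1.38 and 2.27 in the neutral ones. Every tagged library lay above every mock library, both aversive libraries lay above both appetitive ones, and the neutral libraries spanned both pairs. The group means were 0.886 ± 0.188 percent (SD, n = 3) for mock, 1.82 ± 0.223 percent (SD, n = 2) for aversive, 1.51 ± 0.0858 percent (SD, n = 2) for appetitive and 2.01 ± 0.551 percent (SD, n = 3) for neutral. No test was made of this sum.

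**Figure D1:**
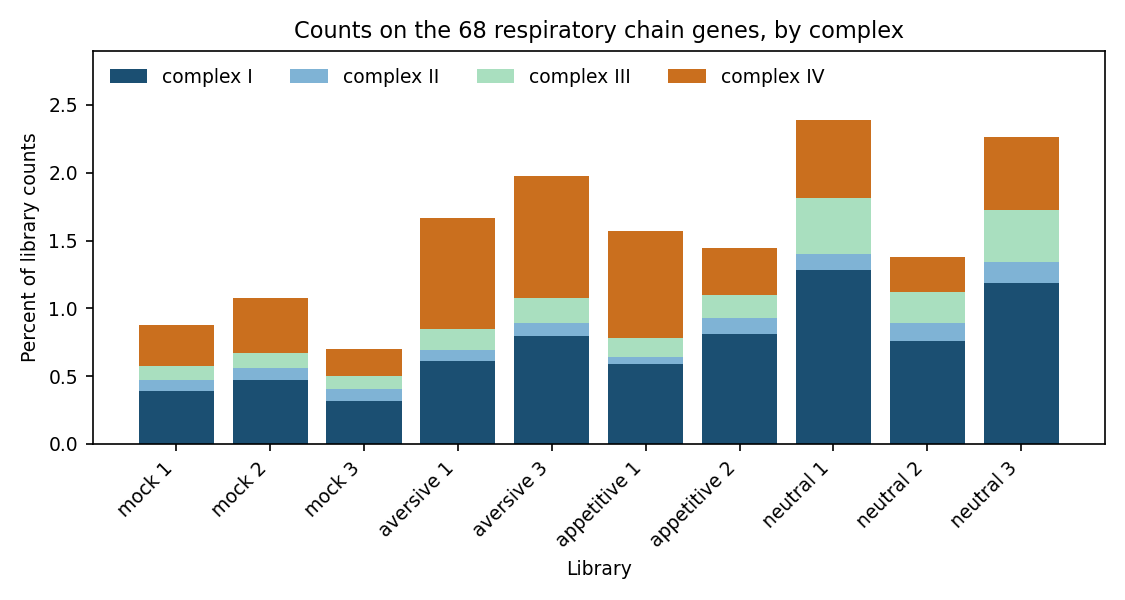
Percent of each library's counts (vertical axis) on members of complexes I, II, III and IV, stacked, for the 10 libraries. The bars of the 7 tagged libraries reach 1.38 to 2.39 percent and those of the 3 mock libraries 0.702 to 1.08 percent, and the complex IV part is tallest in the aversive libraries and appetitive replicate 1.

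The mix of complexes within that sum differed between libraries, and these shares do not depend on how libraries are scaled. Of the counts on members, complex IV made up 34.5, 38.1 and 28.9 percent in the mock libraries, 49.1 and 45.5 in the aversive, 50.2 and 23.9 in the appetitive and 24.1, 18.8 and 23.9 in the neutral ones. Both aversive libraries and appetitive replicate 1 were high, appetitive replicate 2 was as low as the neutral libraries, and the neutral libraries lay below all mock ones. Complex I made up 44.1, 44.0 and 45.4 percent in the mock libraries, 36.9 and 40.2 in the aversive, 37.6 and 56.2 in the appetitive and 53.5, 55.1 and 52.4 in the neutral ones. Both are parts of 1 total, so a higher share of one lowers the other. As a percent of all library counts, complex I was not low in the aversive libraries, at 0.614 and 0.796 against 0.388, 0.474 and 0.319 in mock. The 5 members with the highest level per kb of exon were Cox8a, Cox6a1, Cox4i1, Cox6b1 and Ndufb9, and they alone made up 31.6, 34.2 and 24.2 percent in the mock libraries, 45.3 and 39.9 in the aversive, 48.8 and 17.5 in the appetitive and 16.9, 13.9 and 18 in the neutral ones.

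Against the neutral group, which shared the tagging but not the stimulus, no member was called in the aversive group by edgeR at an adjusted p under 0.05, where 0.0405 percent of all tested genes were called. At an unadjusted p under 0.05, 4 members were higher and 4 lower, beside 8.28 and 10.8 percent of all tested genes. The DESeq2 Wald test called 2, Ndufa11 (lower) and Cox6a2 (higher), beside 9.55 percent of all genes with counts. With no filter edgeR called 4, Ndufb9, Cox6a1, Cox6a2 and Cox8a (higher), beside 2.45 percent of all genes with counts. The median log2 fold change of the members was -0.25, beside -0.15 over all tested genes and 0.01 over genes of like abundance, and 27 of 67 were positive. Genes of like abundance are the 1344 tested genes between the quartiles of the members' abundance. By complex the medians were -0.41 for complex I, -0.43 for complex II, -0.61 for complex III and 0.54 for complex IV, so the complexes did not share a direction, with the same signs under library size alone and DESeq2 size factors. Both aversive libraries lay above all 3 neutral ones for 11 members, beside 14.4 percent of all tested genes, and below them for 14 members, beside 19.3 percent. Those shares of the 67 members, 16.4 and 20.9 percent, are near the background with TMM. Scaling by library size alone, the counts became 7, beside 11.1 percent, and 23 (34.3 percent), beside 21.8 percent, so the lower share then stood above the background.

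Between appetitive and neutral libraries, edgeR called 1 member, Ndufa4l2, which was lower, in a comparison that called 6.17 percent of all tested genes. DESeq2 called 5 members, Ndufa4l2, Ndufa11 and Cox6b2 lower and Ndufb4 and Ndufb9 higher, beside 17.0 percent of all genes with counts. With no filter edgeR called 5, Ndufa4l2 and Cox6b2 lower and Ndufb9, Cox6a1 and Cox8a higher, beside 7.19 percent. Without appetitive replicate 2 edgeR called 5 members, Ndufa4l2, Cox6b2 and Cox8b lower and Ndufb9 and Cox8a higher, beside 9.31 percent of all tested genes. Without appetitive replicate 1 it called 0, beside 4.59 percent. The members' median log2 fold change was -0.02, beside -0.91 over all tested genes, and 33 of 67 were positive. Genes of like abundance had a median of 0.51, so members lay above all genes but below genes of their own level. With library size alone 18 of 67 were positive. With at least 10 counts in every library the median over all genes was 0.04, and the members' median lay below it. Complex IV stood at a higher median in the main fit, 0.91, than complexes I, II and III, with -0.13, -0.27 and -0.19. Its share of the counts on members, however, was 50.2 percent in appetitive replicate 1 and 23.9 in replicate 2. In the neutral libraries that share was 24.1, 18.8 and 23.9 percent. With library size alone the complex IV median was 0 and the other 3 lay between -1.01 and -0.82, and with DESeq2 size factors all 4 were positive, so only the order was kept and not the sign. Both appetitive libraries exceeded every neutral one for 11 members, beside 11.4 percent of all tested genes, and lay below for 8 members, beside 27.2 percent. The lower count, 11.9 percent of members, is under the background with TMM only. Under library size alone these counts were 5, beside 6.37 percent, and 22 (32.8 percent), beside 31.3 percent.

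Appetitive and aversive libraries, the direct contrast of valence, came from the same kit and instrument. No member was called by edgeR at an adjusted p under 0.05, beside 1.8 percent of all tested genes, with 1 member higher and 1 lower at an unadjusted p under 0.05, beside 4.12 and 15.8 percent. DESeq2 called 1, Ndufa4l2 (lower), beside 11.2 percent of all genes with counts, and edgeR without appetitive replicate 2 called 2, Cox6b2 and Cox8b (lower), beside 6.16 percent. The members' median log2 fold change was 0.23 against -0.48 over all tested genes and 0.40 over genes of like abundance, with 51 of 67 positive. The sign turned to -0.16 with library size alone, under which 23 of 67 were positive, and to -0.22 without appetitive replicate 1. No direction between the 2 valences can therefore be given for the members as a list. Appetitive libraries lay above aversive ones without overlap for 12 members, beside 8.34 percent of all tested genes, but for 2, beside 5.29 percent, with library size alone. They lay below for 4 members, beside 20.1 percent. With library size alone they did so for 13 (19.4 percent), beside 22.2 percent, so only TMM puts this share well under the background.

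The comparisons with mock share the same 3 mock libraries. Cox7b2 had counts in mock libraries only, so against mock it could only come out lower. For aversive against mock, edgeR called no member and 0 percent of all tested genes, and DESeq2 called 0 members, beside 4.07 percent of all genes with counts. At an unadjusted p under 0.05, 0 members were higher and 1, Cox7b2, was lower, beside 1.01 and 8.95 percent of all tested genes. Even so 61 of 67 members had a positive log2 fold change, with a median of 0.87 beside -0.13 over all tested genes and 0.12 over genes of like abundance. Both aversive libraries exceeded all 3 mock libraries for 45 of the 67 members (67.2 percent), where 11.4 percent of all tested genes did so, and for 42 with library size alone, beside 8.18 percent.

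For appetitive against mock, edgeR called no member and 1.98 percent of all tested genes, while 10 members were higher and 2 lower at an unadjusted p under 0.05, beside 2.79 and 21 percent. Cox7b2, whose direction was fixed, was 1 of the 2 lower. DESeq2 called 1, Ndufa4l2 (lower), beside 13.3 percent of all genes with counts. Here 63 of 67 members were positive, with a median log2 fold change of 1.24, beside -1.45 over all tested genes and 0.58 over genes of like abundance. Without appetitive replicate 1 the members' median was 0.59. Both appetitive libraries exceeded every mock library for 37 members (55.2 percent), beside 9.78 percent of all tested genes, and for 30 with library size alone, beside 5.11 percent.

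Neutral against mock gave no called member by edgeR, beside 0.0861 percent of all tested genes, but 23 members were higher and 1 lower at an unadjusted p under 0.05, beside 3.72 and 9.73 percent. DESeq2 called 4, Ndufa11, Ndufb7 and Cox8b higher and Cox7b2 lower, beside 4.37 percent of all genes with counts. Cox7b2, also the 1 lower at the unadjusted p, had counts in mock only, which fixed its direction. The members' median log2 fold change was 1.02, the median over all tested genes 0.08 and that over genes of like abundance -0.00, and 58 of 67 were positive. All 3 neutral libraries exceeded all 3 mock libraries for 32 members (47.8 percent), beside 16 percent of all tested genes, and for 45 with library size alone, beside 16.5 percent. In each of the 3 tagged groups, then, most members lay above mock, also with library size alone (60, 58 and 62 of 67 positive for aversive, appetitive and neutral), while edgeR called no single member. Complex II had the lowest median of the 4 complexes in aversive and appetitive libraries but not in neutral ones, where complex IV was at 0.66. Its medians against mock were -0.06 for aversive, 0.54 for appetitive and 0.78 for neutral libraries, the first of which turned to 0.04 with DESeq2 size factors.

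**Figure D2:**
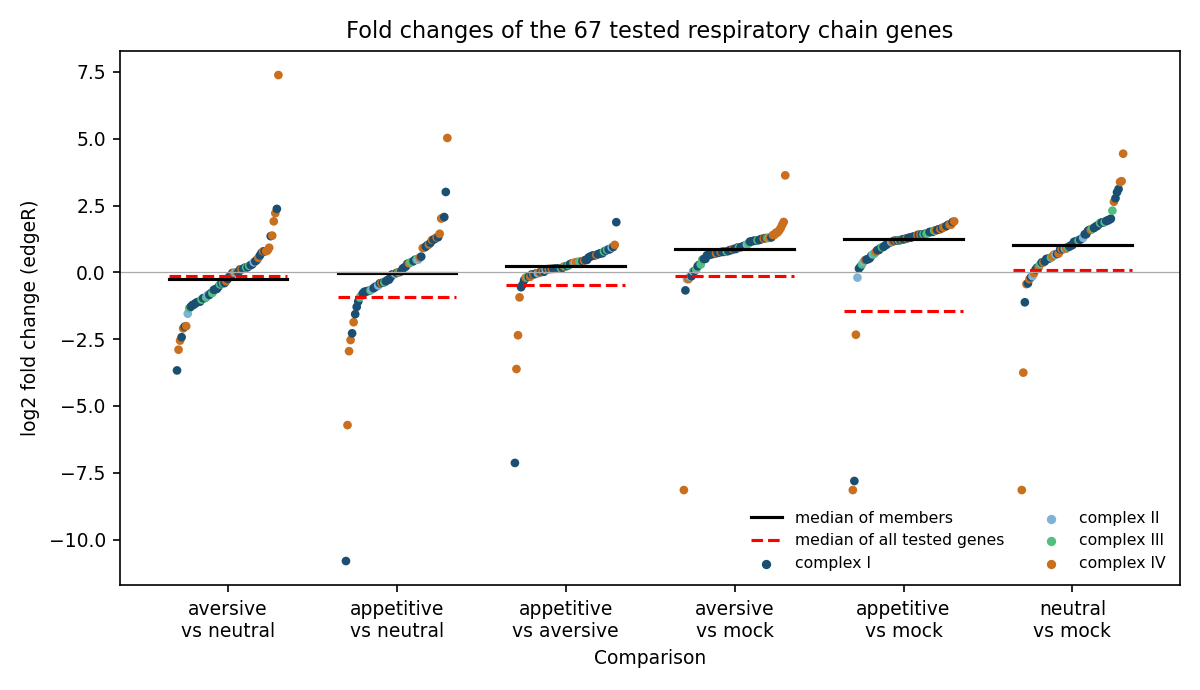
Log2 fold change (vertical axis) of each of the 67 tested members, sorted within each of the 6 comparisons and coloured by complex, with the median of the members (black) and of all tested genes (red, dashed). In the comparisons with mock the black lines stand at 0.87, 1.24 and 1.02, above the red ones, while against neutral they stand near 0.

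Complex I is built from a hydrophilic arm, which holds the flavin and the iron-sulphur clusters, and a membrane arm. Its most abundant member per kb of exon was Ndufb9 (ENSMUSG00000022354, chr15:58933756-58939488), an accessory subunit of the membrane arm. The level of Ndufb9 was 472, 575 and 125 CPM in the mock libraries, 1210.4 and 652 in the aversive, 2590.5 and 298 in the appetitive and 213, 119 and 207 in the neutral ones. Aversive and appetitive libraries lay above all neutral ones, but appetitive replicate 2 lay within the mock range, far under appetitive replicate 1. The difference from neutral did not pass in the aversive group (log2 fold change 2.37, SE 0.88, edgeR adjusted p = 0.2; higher in 2 of 2 libraries) or in the appetitive group (log2 fold change 3.01, SE 0.89, edgeR adjusted p = 0.0643; higher in 2 of 2 libraries), though edgeR with no filter called both. Part of its exons overlaps Gm49356 on the same strand, and 16.4 percent of its 40-base stretches also occur in other genes' transcripts, so its counts are uncertain.

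Ndufa1, a small membrane-arm subunit encoded on the X chromosome, was the next most abundant complex I member, at group means of 236 for mock, 547 for aversive, 598 for appetitive and 859 for neutral CPM per kb. Unlike Ndufb9, its highest group mean was the neutral one.

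Ndufa11 (ENSMUSG00000002379, chr17:56717767-56722141), an accessory subunit at the junction of the membrane arm, had the smallest p of all members in neutral against mock. Its level was 88.5, 77.3 and 57.7 CPM in the mock libraries, 117 and 123 in the aversive, 125 and 140.4 in the appetitive and 958, 278 and 701 in the neutral ones. The 7 libraries of the other groups lay between 57.7 and 140.4 CPM and did not reach any neutral library. Compared with neutral it was lower in aversive libraries (log2 fold change -2.43, SE 0.69, edgeR adjusted p = 0.157) and in appetitive libraries (log2 fold change -2.28, SE 0.69, edgeR adjusted p = 0.067), and neutral against mock gave a log2 fold change of 3.12 (edgeR adjusted p = 0.113; higher in 3 of 3 libraries). None of these passed in edgeR as fitted here. DESeq2 called the gene in all 3 of these comparisons, and edgeR called it in appetitive against neutral without neutral replicate 2, in neutral against mock with no filter, and in both with at least 10 counts in every library (for appetitive against neutral, adjusted p over the edgeR and DESeq2 alternatives ranged from 0.0423, in DESeq2, to 0.185). Vmac overlaps an exon of Ndufa11 on the other strand, and counting without strand does not separate the 2 genes.

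Ndufb7 (ENSMUSG00000033938, chr8:83566671-83571626), another membrane-arm subunit, followed the same split. Its level was 100.3, 125 and 52.7 CPM in the mock libraries, 184 and 126 in the aversive, 241 and 186 in the appetitive and 908, 366 and 626 in the neutral ones. Every neutral library was above every other library, the lowest neutral one being replicate 2. The log2 fold change was -2.03 in aversive and -1.57 in appetitive against neutral, and 2.77 in neutral against mock (edgeR adjusted p = 0.177, 0.148 and 0.16).

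The ratio of counts between members of one library needs no scaling, and pairs were chosen for it after their values were seen. For Ndufb9 over Ndufb7 it was 4.71, 4.59 and 2.38 for mock, 6.57 and 5.18 for aversive, 10.7 and 1.6 for appetitive and 0.234, 0.325 and 0.331 for neutral libraries. For Cox8a over Ndufa11 the same quantity was 9.03, 12.2 and 5.11 for mock, 24.5 and 14.4 for aversive, 30.5 and 1.59 for appetitive and 0.71, 0.873 and 0.823 for neutral libraries. In both pairs, which join members of opposite pattern, all 3 neutral libraries stayed under 1 and the other 7 above 1, with appetitive replicate 2 the lowest of those 7. Cox4i1 over Cox5a did not set the neutral libraries apart, at 15.9, 16.7 and 11.4 for mock, 29.2 and 20.1 for aversive, 29.1 and 12.9 for appetitive and 17.1, 14.4 and 22.8 for neutral libraries.

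Ndufb10, an accessory subunit, and Ndufv2, a core one, had the smallest p among the members higher in appetitive libraries than in mock. Ndufb10 was measured at 172, 194 and 74.2 CPM in the mock libraries, 249 and 207 in the aversive, 454 and 427 in the appetitive and 729, 342 and 529 in the neutral ones. Both appetitive libraries exceeded both aversive and all mock libraries on this scale, with a log2 fold change against mock of 1.59 (SE 0.60, edgeR adjusted p = 0.161) that did not pass. Ndufv2, which carries an iron-sulphur cluster next to the flavin subunit, was measured at 170.3, 181 and 84.0 CPM in the mock libraries, 286 and 198 in the aversive, 469 and 419 in the appetitive and 414, 242 and 304 in the neutral ones. Appetitive libraries were again above mock and aversive ones, with a log2 fold change against mock of 1.61 (SE 0.58, edgeR adjusted p = 0.148). Neither gene, with library size alone, kept appetitive and aversive libraries apart.

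Among the catalytic subunits, Ndufs1 holds several of the iron-sulphur clusters, Ndufv1 binds NADH and flavin, and Ndufs7 and Ndufs8 carry the clusters nearest to ubiquinone. Ndufs1 was measured at 146, 108 and 89.7 CPM in the mock libraries, 189 and 79.6 in the aversive, 346 and 124 in the appetitive and 106, 124 and 72.3 in the neutral ones, with all groups overlapping. Ndufv1 was measured at 164, 131 and 91.0 CPM in the mock libraries, 163 and 102 in the aversive, 414 and 67.8 in the appetitive and 210.0, 219 and 191 in the neutral ones, and here the appetitive libraries spanned all other groups. Ndufs7 was measured at 139.9, 141 and 85.2 CPM in the mock libraries, 147 and 198 in the aversive, 130.0 and 398 in the appetitive and 495, 262 and 397 in the neutral ones, with the 3 neutral libraries above all mock and aversive ones. Ndufs8 was measured at 114, 114 and 65.8 CPM in the mock libraries, 261 and 175 in the aversive, 269.6 and 213 in the appetitive and 529.7, 216 and 433 in the neutral ones. Every tagged library exceeded every mock library for Ndufs8, and its log2 fold changes against mock were 1.16 for aversive, 1.30 for appetitive and 2.01 for neutral libraries (edgeR adjusted p = 0.523, 0.219 and 0.174). The catalytic core thus held both a subunit with neutral libraries above mock and aversive ones, Ndufs7, and one without any split, Ndufs1. None of these subunits had every neutral library above every other library, as Ndufa11 and Ndufb7 did. The proteins are present in equal number in the complex.

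Over the 38 complex I members, the log2 fold change against mock was positive for 36 members in the aversive group, 37 in the appetitive group and 35 in the neutral group. Against neutral 14 were positive in aversive and 16 in appetitive libraries. Counts of some are uncertain, since 18.7 percent of the 40-base stretches of Ndufb4 occur also in Ndufb4c and 24.2 percent of those of Ndufs5 in BC002163, an observation made after the values were seen.

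Complex II, which doubles as the succinate dehydrogenase of the citric acid cycle, did not have one direction against mock. Sdha, its flavoprotein, was measured at 492, 406 and 304 CPM in the mock libraries, 472 and 245 in the aversive, 581 and 118 in the appetitive and 293, 406 and 388 in the neutral ones. Every group overlapped every other, and the log2 fold changes against mock were -0.16, -0.20 and -0.15 for aversive, appetitive and neutral libraries, in this order. Sdhb, the iron-sulphur subunit, was measured at 181, 216 and 116 CPM in the mock libraries, 367 and 339 in the aversive, 255 and 499 in the appetitive and 282, 253 and 279 in the neutral ones. All tagged libraries lay above all mock ones for Sdhb, with log2 fold changes of 1.04, 1.14 and 0.67, none of which passed (edgeR adjusted p = 0.527, 0.236 and 0.7). Sdhd, one of the membrane anchors and the most abundant complex II member per kb, ranged over all 10 libraries from 88.0 to 294 CPM. As a share of library counts, the 4 members together took 0.0797, 0.0845 and 0.085 percent in the mock libraries, 0.0813 and 0.0964 in the aversive, 0.0531 and 0.115 in the appetitive and 0.119, 0.129 and 0.156 in the neutral ones, so that the neutral libraries stood above all mock ones while appetitive replicate 1 stood below them.

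In complex III, the small subunits Uqcr10 and Uqcr11 were the most abundant per kb. Uqcr11 was measured at 137, 186 and 46.3 CPM in the mock libraries, 340.0 and 177 in the aversive, 478 and 204 in the appetitive and 639, 224 and 465 in the neutral ones. Uqcr10 was measured at 142, 152 and 60.9 CPM in the mock libraries, 286 and 166 in the aversive, 296 and 247 in the appetitive and 649, 198 and 456 in the neutral ones. Uqcr10 was above mock in every tagged library, and Uqcr11 in all but aversive replicate 3, which lay under mock replicate 2. Log2 fold changes of Uqcr11 were 1.07 for aversive, 1.47 for appetitive and 1.85 for neutral against mock (edgeR adjusted p = 0.618, 0.243 and 0.261). Uqcrfs1, the Rieske iron-sulphur protein that takes electrons from ubiquinol, was measured at 187, 129.8 and 102 CPM in the mock libraries, 166 and 133 in the aversive, 289.6 and 246 in the appetitive and 248, 166 and 198 in the neutral ones, a narrower range than that of the small subunits. Over the 8 members the highest library exceeded the lowest by 1.73-fold for the core subunit Uqcrc2 and by 13.8-fold for the small subunits Uqcrq and Uqcr11. All 8 had positive log2 fold changes against mock in each tagged group, save 1 in appetitive libraries with library size alone and with at least 10 counts in every library.

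Complex IV held the most abundant members of all. Cox8a (ENSMUSG00000035885, chr19:7215153-7217616), a small transmembrane subunit, was measured at 799, 941 and 295 CPM in the mock libraries, 2866 and 1776 in the aversive, 3812 and 223 in the appetitive and 679.7, 243 and 577 in the neutral ones. Aversive libraries lay above all mock and neutral ones, and the appetitive pair was split, replicate 1 high and replicate 2 low. The group means were 2321 ± 771 CPM (SD, n = 2) in aversive and 500.0 ± 228 CPM (SD, n = 3) in neutral libraries, and the difference did not pass (log2 fold change 2.21, SE 0.94, edgeR adjusted p = 0.243; higher in 2 of 2 libraries), though it was called with no filter. Cox6a1 (ENSMUSG00000041697, chr5:115345642-115348981), the widely expressed form of a regulatory subunit, was measured at 808, 1084 and 253 CPM in the mock libraries, 2883 and 1617 in the aversive, 4395 and 529 in the appetitive and 831, 304 and 663 in the neutral ones. Its libraries were in the same order as those of Cox8a within every group, and neither the difference of aversive from neutral (log2 fold change 1.91, SE 0.86, edgeR adjusted p = 0.26) nor that of appetitive from neutral (log2 fold change 2.04, SE 0.86, edgeR adjusted p = 0.148) passed, though both were called with no filter. Without appetitive replicate 1 the second log2 fold change was -0.27, so the direction against neutral rests on that library.

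Cox4i1, the largest nuclear subunit and the usual site of ATP inhibition, was measured at 813, 910.3 and 353 CPM in the mock libraries, 2155 and 1502 in the aversive, 3901 and 855 in the appetitive and 1595, 669.6 and 1505 in the neutral ones. Aversive libraries lay above mock and overlapped neutral ones. Cox6b1, which helps join the monomers of the oxidase into a dimer, was measured at 330.5, 424 and 147 CPM in the mock libraries, 1116 and 658 in the aversive, 1241 and 344 in the appetitive and 519, 168 and 339.6 in the neutral ones. Both aversive libraries were above all mock and neutral ones, with log2 fold changes of 1.56 against mock and 1.37 against neutral (edgeR adjusted p = 0.495 and 0.327). Cox6c was measured at 250.3, 404 and 126 CPM in the mock libraries, 856 and 605 in the aversive, 1205 and 387 in the appetitive and 641, 189 and 441 in the neutral ones, again with aversive above mock without overlap (log2 fold change 1.49, SE 0.73, edgeR adjusted p = 0.504; higher in 2 of 2 libraries). Complex IV thus split the appetitive pair, replicate 1 with the aversive libraries and replicate 2 near mock and neutral, and these are also the libraries with a high and a low share of myelin transcripts among the appetitive ones. In the aversive pair the share of oligodendrocyte markers was 30.2 and 3.17 percent, while complex IV made up a similar 49.1 and 45.5 percent of the counts on members. In the mock libraries it was lower in replicate 3 than in the others, as was the complex IV share. The part of myelin content was not tested.

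**Figure D3:**
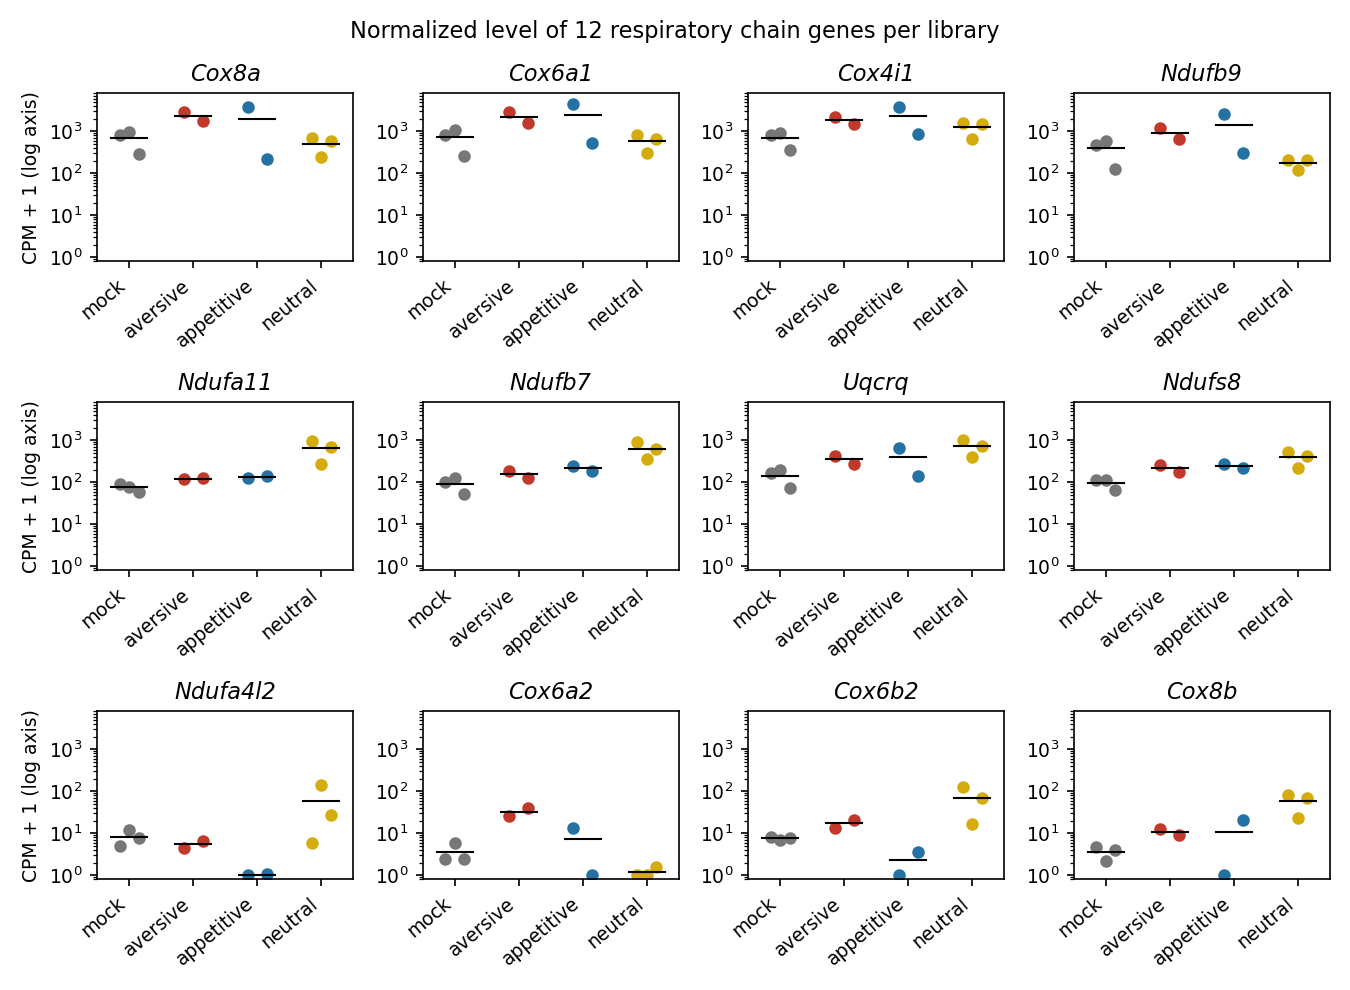
Normalized level (vertical axis, CPM + 1, log axis) of 12 members in each library, with 1 point per library and a line at the group mean. Cox8a, Cox6a1 and Ndufb9 are high in both aversive libraries and appetitive replicate 1, Ndufa11 and Ndufb7 are high in the 3 neutral libraries, and Ndufa4l2 is at or near 0 in both appetitive libraries.

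Several subunits have a tissue-restricted isoform beside the common one. Ndufa4l2 (ENSMUSG00000040280, chr10:127514967-127517154), a paralog of Ndufa4 known as a hypoxia-induced gene and as a transcript of pericytes, was measured at 3.86, 11.2 and 6.56 CPM in the mock libraries, 3.5 and 5.51 in the aversive, 0 and 0.0524 in the appetitive and 4.75, 142 and 26.0 in the neutral ones. Appetitive libraries had 0 and 1 count, below every other library, while neutral replicate 2 alone held 12269 counts. The neutral mean over the pooled appetitive level was 1833, with a 95% counting interval of 329 to 72397. Without neutral replicate 2 it was 491 (88.1 to 19378). This was the one member called (log2 fold change -10.81, SE 2.34, edgeR adjusted p = 0.0288; lower in 2 of 2 libraries). The fitted fold depends on the prior count and is no estimate of size. The call was made in 8 of 16 alternatives, with edgeR and DESeq2 adjusted p from 1.01e-06 to 0.0977, and it was lost on leaving out any single one of the mock libraries, appetitive replicate 1 or neutral replicate 2 or 3 (without neutral replicate 2, edgeR adjusted p = 0.0583). An exon overlaps Shmt2 on the other strand, and Shmt2 was measured at 0.391 and 12.5 CPM in the appetitive libraries and 44.8 CPM in neutral replicate 2.

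Because Ndufa4l2 is known from pericytes, 6 genes that pericytes express (Rgs5, Kcnj8, Abcc9, Vtn, Pdgfrb and Higd1b) were summed, a choice made after the values were seen. Their summed level was 374, 664 and 564 CPM in the mock libraries, 209.7 and 378 in the aversive, 246 and 142 in the appetitive and 133, 2854 and 830.3 in the neutral ones. Rgs5, the most abundant of the 6 in that library, alone reached 1333 CPM in neutral replicate 2, against 1.64 and 27.6 CPM in the appetitive libraries. Neutral replicates 2 and 3, highest in Ndufa4l2, were also highest in this sum, whereas the appetitive sums, mostly Vtn, were not below that of neutral replicate 1. Single genes of the 6 differed in direction against neutral replicate 1. Rgs5, Kcnj8 and Abcc9 were lower in both appetitive libraries, and Vtn was higher in both. Pdgfrb and Higd1b were higher in appetitive replicate 1 and lower in replicate 2. The part of pericytes in the call was not tested. Ndufa4, which is grouped with complex I by its name although it is now known as a subunit of complex IV, was measured at 204, 246 and 110.2 CPM in the mock libraries, 549 and 358 in the aversive, 647 and 236 in the appetitive and 726, 247 and 535 in the neutral ones, and its aversive and neutral libraries lay above all mock ones, neutral replicate 2 only just.

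Cox4i2, the oxygen-responsive alternative to Cox4i1, was measured at 1.87, 4.79 and 3.41 CPM in the mock libraries, 0 and 5.61 in the aversive, 11.5 and 0 in the appetitive and 3.64, 49.1 and 10.1 in the neutral ones. Like Ndufa4l2 it was highest in neutral replicate 2, and aversive replicate 1 and appetitive replicate 2 had no counts. Cox6a2, the heart and skeletal muscle form that is also known from some interneurons, was measured at 1.51, 4.79 and 1.45 CPM in the mock libraries, 25.4 and 38.6 in the aversive, 12.5 and 0 in the appetitive and 0, 0 and 0.565 in the neutral ones. It was higher in both aversive libraries than in any other library, and 0, 0 and 44 counts were found in the neutral ones. Aversive against neutral did not pass in edgeR (log2 fold change 7.38, SE 2.83, edgeR adjusted p = 0.209), but edgeR with no filter and DESeq2 called it (DESeq2 adjusted p = 0.0224, within a range over alternatives of 0.0224 to 0.429). Itgad overlaps an exon of Cox6a2 on the other strand.

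Cox6b2, the testis form of Cox6b1, was measured at 7.33, 5.94 and 6.74 CPM in the mock libraries, 12.6 and 19.9 in the aversive, 0 and 2.62 in the appetitive and 125, 16.1 and 67.4 in the neutral ones. Neutral replicates 1 and 3 were far above the rest, and both appetitive libraries lay below every other library (log2 fold change -5.72, SE 1.92, edgeR adjusted p = 0.0865 against neutral; lower in 2 of 2 libraries). Cox7a1, the heart and muscle partner of Cox7a2, was measured at 3.66, 4.74 and 2.09 CPM in the mock libraries, 18.1 and 0.301 in the aversive, 0 and 9.59 in the appetitive and 56.5, 10.1 and 44.9 in the neutral ones. Neutral replicates 1 and 3 were again the highest, while within the aversive and the appetitive pair 1 library was near or at 0. Cox8b, the muscle partner of Cox8a, was measured at 3.7, 1.15 and 3.03 CPM in the mock libraries, 11.4 and 8.08 in the aversive, 0 and 19.7 in the appetitive and 79.5, 22.4 and 69.4 in the neutral ones, with all 3 neutral libraries above all others. These 3 isoforms therefore shared their highest libraries, neutral replicates 1 and 3, which are also those with the largest share of choroid plexus markers.

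The common partners did not follow them. Cox7a2 was measured at 205, 237 and 82.9 CPM in the mock libraries, 454 and 403 in the aversive, 800.4 and 322 in the appetitive and 319, 129 and 231 in the neutral ones, with both appetitive libraries above all neutral and mock ones and log2 fold changes of 1.31 and 1.68 that did not pass (edgeR adjusted p = 0.213 and 0.176). Cox7b was measured at 98.1, 116 and 35.5 CPM in the mock libraries, 167 and 137 in the aversive, 268 and 121 in the appetitive and 229, 72.9 and 161 in the neutral ones, with both aversive and both appetitive libraries above mock. Cox7b2, its testis form, had 36, 14 and 16 counts in the mock libraries and none in the 7 tagged ones. It passed the filter on low counts only through mock, which fixed the direction of the values that follow, so they are descriptions. Against the floor of 3 counts in the shallowest library, mock was at least 5.29-fold higher than aversive, at least 3.39-fold higher than appetitive and at least 16.8-fold higher than neutral, none of which passed in edgeR (adjusted p = 0.473, 0.178 and 0.174). Without mock replicate 1 these bounds were 3.16, 2.03 and 10.0, and mock replicate 3 alone, at 0.221 CPM, lay under the appetitive floor of 0.235 CPM. Cox8c, another testis form, had no counts in any of the 10 libraries and was not tested.

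**Figure D4:**
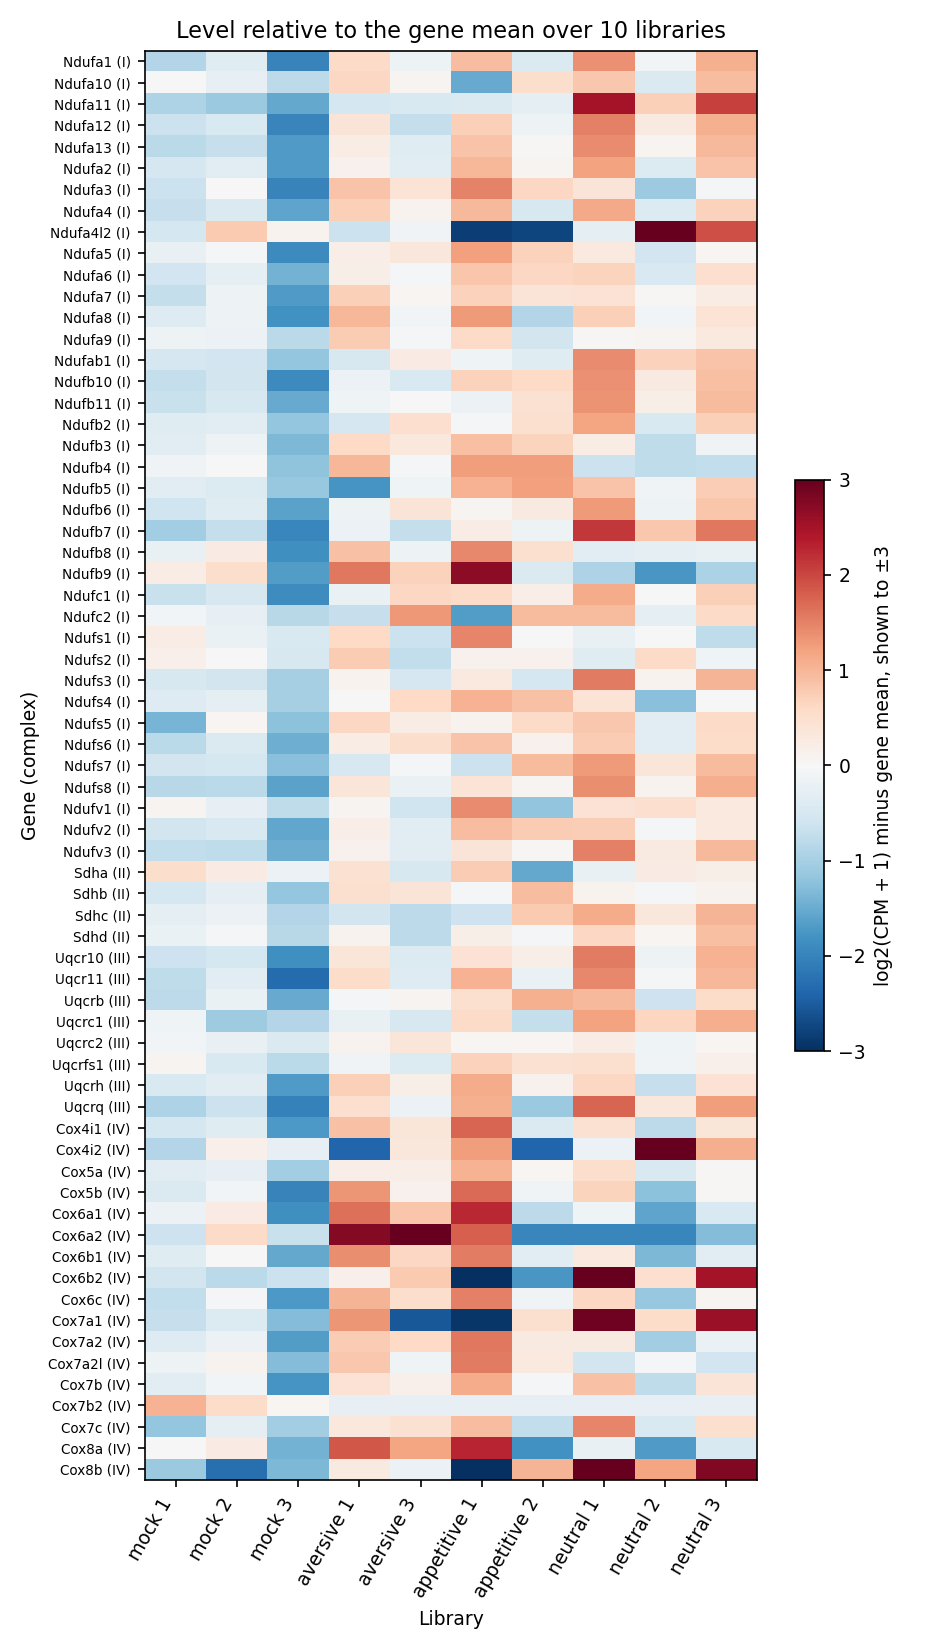
Level of each of the 67 members with counts (vertical axis, by complex) in the 10 libraries (horizontal axis), as log2(CPM + 1) minus the gene's mean over the libraries, with red above and blue below the mean and colours ending at ±3. Mock libraries, replicate 3 most of all, are blue for most members, neutral replicates 1 and 3 are red for most complex I and III members, and the strongest colours belong to the isoforms Ndufa4l2, Cox4i2, Cox6a2, Cox6b2, Cox7a1 and Cox8b.

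The members act beside other parts of oxidative metabolism, and lists of these were set against the same all-gene medians. For 16 ATP synthase genes, the median log2 fold changes against mock were 0.91 for aversive, 1.04 for appetitive and 1.24 for neutral libraries, close to those of the members, and edgeR called none in any of the 6 comparisons (0, 1 and 6 higher and 0, 0 and 0 lower at an unadjusted p under 0.05 against mock). For 40 tested of 42 assembly factors, which build the complexes without being part of them, they were 0.68 for aversive, 0.76 for appetitive and 0.69 for neutral libraries, and none was called in any comparison, with 0, 5 and 2 higher and 1, 4 and 0 lower at an unadjusted p under 0.05 against mock. For Cycs and Cyc1, cytochrome c and its docking subunit in complex III, they were 0.66 for aversive, 0.24 for appetitive and 1.09 for neutral libraries, with none called and 0, 0 and 1 higher and 0, 0 and 0 lower at an unadjusted p under 0.05. The 16 genes of the citric acid cycle and pyruvate dehydrogenase had medians of -0.07 for aversive, 0.68 for appetitive and 0.46 for neutral libraries, with none called and 0, 3 and 2 higher and 0, 1 and 0 lower at an unadjusted p under 0.05, so the aversive libraries, high in respiratory chain members, were not high in this list. Over all tested genes the shares at that p were 1.01, 2.79 and 3.72 percent higher and 8.95, 21 and 9.73 percent lower. These lists were tested with edgeR and TMM only.

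The 13 respiratory genes of mitochondrial DNA encode further subunits of complexes I, III and IV and, with mt-Atp6 and mt-Atp8, subunits of ATP synthase. Only 7 of them were tested, since mt-Co2, mt-Co3, mt-Atp6, mt-Atp8, mt-Nd3 and mt-Nd4l did not pass the filter on low counts. Why these had few counts, by level or by read mapping, was not tested. As a share of library counts, the 13 together took 2.57, 2.82 and 1.74 percent in the mock libraries, 4.5 and 5.75 in the aversive, 4.78 and 1.85 in the appetitive and 8.79, 2.14 and 3.31 in the neutral ones. Appetitive replicate 2 was the lowest of the tagged libraries, and neutral replicate 1 was the highest. None of the 7 was called in any comparison by edgeR, with none at an unadjusted p under 0.05, and their medians against mock were 1.24 for aversive, 1.36 for appetitive and 0.99 for neutral libraries.

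Glycolysis feeds the chain through pyruvate. Its 17 identifiers had median log2 fold changes against mock of 0.01 for aversive, -0.56 for appetitive and 0.81 for neutral libraries, near or under 0 for the stimulus groups and near the members only for neutral. In single genes, edgeR called Hk1 lower and Aldoc higher in appetitive against neutral and Aldoc lower in neutral against mock. Hk1, the main hexokinase of brain, was measured at 109, 75.2 and 108 CPM in the mock libraries, 157 and 78.7 in the aversive, 0.469 and 4.98 in the appetitive and 173, 59.5 and 166 in the neutral ones, so both appetitive libraries lay under all others (log2 fold change -5.60, edgeR adjusted p = 0.0289 against neutral). Aldoc is also the leading astrocyte marker above, and in the neutral libraries it was 114, 141 and 136 CPM, under all others (log2 fold change -4.60, edgeR adjusted p = 0.0482 against mock).

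Regulators of mitochondrial biogenesis, a list of 11, had the list medians farthest from those of the members in the appetitive comparisons. In appetitive libraries all 11 had negative log2 fold changes against neutral, with 4 called, and all 11 against mock, with 2 called, beside 6.17 and 1.98 percent of all tested genes. Nrf1, a transcription factor of nuclear respiratory genes, was measured at 22.1, 42.8 and 34.0 CPM in the mock libraries, 64.8 and 23.7 in the aversive, 0.0782 and 0.0524 in the appetitive and 26.4, 14.6 and 18.4 in the neutral ones. Both appetitive libraries held only 1 count each, and the gene was called lower than in aversive (log2 fold change -9.37, edgeR adjusted p = 0.0253), neutral (log2 fold change -8.21, edgeR adjusted p = 0.0183) and mock libraries (log2 fold change -8.94, edgeR adjusted p = 0.0317). Polrmt, the RNA polymerase of mitochondria, was measured at 16.3, 8.65 and 24.4 CPM in the mock libraries, 65.2 and 22.0 in the aversive, 0 and 0.0524 in the appetitive and 35.5, 24.7 and 14.7 in the neutral ones, and was called lower in appetitive libraries against the same 3 groups (log2 fold change -10.40, edgeR adjusted p = 0.0299; log2 fold change -9.60, adjusted p = 0.0203 and log2 fold change -9.00, adjusted p = 0.036). Ppargc1a, a coactivator of these factors, and Gabpb1, a subunit of GABP, were called lower in appetitive against neutral only (log2 fold change -9.45, edgeR adjusted p = 0.0341, and log2 fold change -7.10, adjusted p = 0.0482; each lower in 2 of 2 libraries). Fitted folds of genes with 0 to 3 counts in a library depend on the prior count. Whether poorer detection has a part in this was not tested. In the appetitive libraries 35.5 and 43.3 percent of tested genes reached 1 CPM, against 50.3 to 72.5 percent in the other libraries. Of the 68 members, 62 and 63 reached 1 CPM in the appetitive libraries, and 65 to 67 in the others.

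Members that move together may share promoter elements, so promoters were read for the letters of 3 motifs known from nuclear respiratory genes. RefSeq promoter windows (GRCm38.p6, 250 bases before to 50 after the start) matched 54 of the 68 members, with 56 windows. The NRF-1 core GCGCANGCG, on either strand, was found in 13 of 54 members (24.1 percent), beside 7.03 percent of 27025 genes with a window. The GABP core CCGGAAG was found in 11 members (20.4 percent), beside 9.93 percent of genes, and the YY1 core ATGGCNNC in 18 (33.3 percent), beside 18.9 percent. All 3 motifs were thus more frequent among members than among genes at large, as a description with no test. Of 33 complex I members and of 13 complex IV members, NRF-1 letters were in 8 and 1, GABP letters in 4 and 3 and YY1 letters in 13 and 5. A match is neither a binding site nor a cause.

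Promoter stretches of 150 bases that end just before the RefSeq start are shown for 3 members: Cox6a1, of the pattern high in aversive libraries, and Ndufa11 and Ndufb7, of the pattern high in neutral libraries. They are printed 5′ to 3′ on the strand of the gene, with motif letters in capitals, from chr5:115348959-115349108 (minus strand), chr17:56717612-56717761 (plus strand) and chr8:83566608-83566757 (plus strand) of GRCm38.p6. Cox6a1 holds 1 match to the NRF-1 core and 1 to the GABP core on the other strand, Ndufa11 holds 2 overlapping matches to the NRF-1 core on opposite strands, and Ndufb7 holds 1 match to the GABP core. Among these 3 chosen promoters the motifs therefore occur on both sides of the split. Cox6a1, however, was the only 1 of 13 complex IV members with NRF-1 letters in its window. The same stretch of Cox8a, of the pattern of Cox6a1, held no whole match, though its full window held 2 to the GABP core. For Cox6a1 and Ndufb7 the RefSeq start lies inside the gene as GENCODE has it.
Cox6a1: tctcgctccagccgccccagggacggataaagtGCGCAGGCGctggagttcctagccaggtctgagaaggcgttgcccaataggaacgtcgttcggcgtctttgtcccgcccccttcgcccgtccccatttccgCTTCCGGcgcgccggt
Ndufa11: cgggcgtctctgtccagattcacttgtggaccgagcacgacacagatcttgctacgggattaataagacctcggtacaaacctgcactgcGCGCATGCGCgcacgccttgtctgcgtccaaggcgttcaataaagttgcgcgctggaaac
Ndufb7: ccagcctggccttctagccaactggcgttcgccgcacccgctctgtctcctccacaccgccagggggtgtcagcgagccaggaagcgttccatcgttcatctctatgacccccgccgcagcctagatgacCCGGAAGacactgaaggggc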

How the data were processed

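RNA-seq libraries of sorted hippocampal cells were analysed from the tables the authors deposited, which hold raw counts per Ensembl gene: per the submitters' processing notes and the methods, the first 40 bp of each read were mapped with STAR to mm10 (GRCm38) and counted with featureCounts without strand. Depth ran from 16968588 to 67650693 counts per library. Symbols, types, positions and exon lengths came from GENCODE M21, which matched 53274 of 53379 identifiers.

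The tests used edgeR 4.0.16 under R 4.3.3 (TMM, filterByExpr, 1 quasi-likelihood fit of 4 groups to 10 libraries, two-sided F tests, Benjamini-Hochberg adjustment over all tested genes) in 6 comparisons, after a check on data simulated with known changes. DESeq2 1.42.0, other scalings, other filters, fits of only the groups compared, a replicate block and leaving out each library were alternatives. Standard errors were derived from the F statistics. Intervals on counts are exact Poisson intervals.

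Members and lists were chosen with earlier results of these data known. Named members were the 2 most abundant per kb in each complex, the 2 with the smallest p in each direction of each comparison, isoform pairs and catalytic subunits. This rule, the tests and the alternatives were fixed before the data were examined here, except counts of members without overlap under library size alone and bounds on Cox7b2 and the ratio of Ndufa4l2 without single libraries, chosen after seeing the data. Marker and pathway lists are described by counts and medians. Reads themselves were not analysed here. With Cox7b2 at its bound, or left out where both groups had no counts, the members' median became -0.29 in aversive and -0.04 in appetitive against neutral. Sequences are from RefSeq (GRCm38.p6).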

Additional observations from a re-analysis of the deposited data

Results flagged for a closer look

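For 2 members the aversive and the appetitive libraries lay on opposite sides of a shared reference group with TMM, with no overlap, 2.99 percent of 67 beside 4.17 percent of all tested genes. With library size alone this held for 1 member, Ndufa9 in place of the 2 described here, 1.49 percent beside 3.04 percent. Members did not show this more often than other genes. Ndufb5, a membrane-arm subunit of complex I, was measured at 102, 97.2 and 57.5 CPM in the mock libraries, 37.2 and 118 in the aversive, 265 and 304 in the appetitive and 234, 119 and 216 in the neutral ones. Both aversive libraries lay under all neutral ones and both appetitive libraries above them. Appetitive against aversive gave a log2 fold change of 1.88 (SE 0.78, edgeR adjusted p = 0.221), so the difference did not pass, and the difference between the effects against neutral was not tested apart. With library size alone the appetitive libraries overlapped both groups. Mrpl47 overlaps an exon of Ndufb5 on the other strand.

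Cox6b2, the testis form of a complex IV subunit, lay above all mock libraries in both aversive libraries and below them in both appetitive ones. Appetitive against aversive gave a log2 fold change of -3.62 (SE 1.78, edgeR adjusted p = 0.281), and the difference of effects against mock was not tested apart. The appetitive libraries held 0 and 50 counts. With library size alone aversive and mock libraries overlapped.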

How the results depend on the processing

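The number of members called changed with the filter and the tool. With no filter it was 4 in aversive against neutral, 5 in appetitive against neutral, 1 in appetitive against mock and 1 in neutral against mock, beside 2.45, 7.19, 3.19 and 1.47 percent of all genes. DESeq2 called 2, 5, 1, 1 and 4 in aversive against neutral, appetitive against neutral, appetitive against aversive, appetitive against mock and neutral against mock, beside 9.55, 17.0, 11.2, 13.3 and 4.37 percent. The 4 include Cox7b2, which had counts in mock only. A minimum of 10 counts in every library gave 2 in neutral against mock, beside 1.09 percent of all genes. In appetitive against neutral it gave 1, which was Ndufa11 (lower) in place of Ndufa4l2, beside 3.43 percent. Fitting only the groups compared gave 0 in appetitive against neutral and 1 in appetitive against mock, beside 0 and 21.8 percent.

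Leaving out each library in turn, with a lone library of a group assumed to vary like the others, gave 0 to 5 calls in appetitive against neutral, 0 to 2 in appetitive against aversive, 0 to 1 in appetitive against mock and 0 in the other 3 comparisons. The shares of all genes called ran over 0.358 to 12.1, 0 to 6.16 and 0 to 8.04 percent in those 3, and over 0 to 1.9 and 0 to 0.354 percent in aversive and mock against neutral, with none called in aversive against mock. Median log2 fold changes ran from -0.22 to 0.50 in appetitive against aversive and from 0.59 to 1.36 in appetitive against mock.

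With library size alone the median was -0.79 in appetitive against neutral and -0.16 in appetitive against aversive, and with at least 10 counts in every library -0.49 and -0.13. With that minimum the median over all tested genes in appetitive against neutral was 0.04, above that of the members. Library size alone moved the median of all tested genes in appetitive against neutral from -0.91 to -1.45, and to -0.40, -0.88, -0.28, -1.93 and 0.19 in aversive against neutral, appetitive against aversive, and aversive, appetitive and neutral against mock. As a share of nuclear protein-coding counts the members took 2.13 percent in aversive and 1.62 percent in appetitive libraries, and tagged libraries still exceeded all mock ones. The cause of these changes was not tested.

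The study's reporting summary speaks of 3 replications with control of batch effects, but no source assigns libraries to batches by number, and deviations of same-numbered libraries correlated between -0.08 and 0.20 over 12 pairs. With a replicate block 0 members were called in appetitive against neutral, beside 0.37 percent of all genes, and the median log2 fold changes were -0.30, -0.24, 0.20, 0.88, 1.03 and 1.07 in the 6 comparisons, in the order aversive, appetitive against neutral, appetitive against aversive, and aversive, appetitive and neutral against mock.

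Of 398 alternative values for members with the smallest p, 365 kept direction and side of the threshold, 8 lost a call and 23 gained one. The direction turned for Cox6a1 in appetitive against neutral (-0.27 without appetitive replicate 1, and up to 2.81 without appetitive replicate 2) and for Ndufa4l2 in aversive against mock (0.15 with the block). At least 10 counts in every library were found for 60 of 68 members, and the part of depth in the low counts of the other members was not tested.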

Other observations

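Libraries of one group differed among themselves. Between appetitive replicates 1 and 2, 31 of 67 members differed by more than 2-fold in CPM + 1, and the rank correlation of levels across members was 0.717. Between neutral replicates 1 and 2 the number was 41, with a median log2 difference of 1.17, while between neutral replicates 1 and 3 it was 2. Mock replicates 2 and 3 differed by more than 2-fold for 37 members, and aversive replicates 1 and 3 for 12. Genes are not independent replicates, and these are descriptions of the libraries.

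The steadiest member was Uqcrc2, a core protein of complex III, with a range over the 10 libraries of 113 to 194 CPM. Among the 60 members with at least 5 CPM in every library, Ndufb9 had the largest ratio of highest to lowest library with TMM. It was 21.8-fold, from 119 to 2590.5 CPM, though Cox6a1, Cox8a and Cox4i1 spanned more CPM. Both were chosen after their values were seen.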
